A study of Mus musculus with 2 samples.

Results

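Lyve1, Folr2, Cd163, Mrc1, Cbr2, Ednrb, Gas6, Fcna, Cd209f and Timd4 are 10 genes commonly used to mark macrophages that reside in tissues. They were taken by symbol from all 32285 genes measured, and each matched 1 gene. They were proposed with earlier results of these same data known, so every value here describes them and no test was made. The data are 2 single-cell libraries of immune cells from mouse tumours, called Arg and Control, made by droplet capture. The Arg library was read from the series' design text as the arginine-deficient diet arm, because its own label gives no diet. BALB/c mice aged 5 weeks, allotted at random by body weight, started that diet or, for Control, a normal diet of equal calories 1 week ahead of tumour injection. CT26, a colorectal carcinoma line of mouse origin, was injected under the skin, and tumours were collected on day 20. Cells carrying CD45, the pan-leukocyte surface protein, were enriched with magnetic beads, yet fibroblast-like clusters and an unnamed cluster of 424 Arg and 1215 Control cells led by genes such as Rhox5 and Hmga2 were also found. How many mice each library pooled is not stated in those sources, and each diet had 1 library, so a difference between libraries has no replicate check and no p-value. All intervals are exact 95% intervals that cover counting error only.

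Macrophages that settle in tissues and line vessels carry a shared set of endocytic and scavenging receptors. Lyve1 encodes a receptor for hyaluronan that is also found on lymphatic vessels. Folr2 encodes folate receptor beta, Cd163 the receptor that clears haemoglobin bound to haptoglobin, and Mrc1 the mannose receptor CD206. Fcna encodes ficolin A, a soluble lectin that starts complement activation, and Cd209f a C-type lectin of the mouse DC-SIGN family. Gas6 is a secreted ligand that bridges phosphatidylserine on dying cells to the receptors Axl, Mertk and Tyro3, and Timd4 encodes TIM-4, a phosphatidylserine receptor of resident macrophages. Ednrb encodes the endothelin B receptor and Cbr2 a carbonyl reductase.

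The genes lie on 6 chromosomes of the build GRCm38, and all are annotated as protein coding in GENCODE M21. Lyve1 lies at chr7:110850607-110863239 and Folr2 at chr7:101839988-101857194, both on the minus strand. Ednrb lies at chr14:103814625-103844402 on the minus strand. Fcna, at chr2:25624666-25628030 on the minus strand, overlaps Fcnaos on the opposite strand. Mrc1, at chr2:14229392-14332057 on the plus strand, contains Mir511 on its own strand. Folr2 and Gas6 also overlap other genes, and no source used here says whether reads in introns entered the counts.

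MAF is a transcription factor long tied to resident macrophages, and PU.1 is a factor shared by myeloid cells. The RefSeq promoter table (GRCm38.p6) held 9 of the 10 genes. The 250 bases before each RefSeq start were searched on both strands for the MAF core TGCTGA and the PU.1 core GAGGAAG. The MAF core was found in 4 of the 9 windows and in 16.1% of all 32851 windows of that length. The PU.1 core was found in 3 of the 9 (Mrc1, Cbr2 and Fcna) and in 10.6% of all windows. The windows that hold the MAF core are printed, with matches in capitals, since they include Ednrb, which was lower in the Arg library in every cluster where it was measured, and Timd4, which was highest in dendritic cells. They span chr14:103843702-103843951 for Ednrb, chr2:25627975-25628224 for Fcna and chr7:101857191-101857440 for Folr2, read along the minus strand, and chr11:46810549-46810798 for Timd4 on the plus strand.
Ednrb: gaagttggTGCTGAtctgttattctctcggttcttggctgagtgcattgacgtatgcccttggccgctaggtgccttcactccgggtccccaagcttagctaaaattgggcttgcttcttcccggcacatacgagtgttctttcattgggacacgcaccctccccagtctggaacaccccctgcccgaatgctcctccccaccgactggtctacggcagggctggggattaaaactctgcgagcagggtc
Fcna: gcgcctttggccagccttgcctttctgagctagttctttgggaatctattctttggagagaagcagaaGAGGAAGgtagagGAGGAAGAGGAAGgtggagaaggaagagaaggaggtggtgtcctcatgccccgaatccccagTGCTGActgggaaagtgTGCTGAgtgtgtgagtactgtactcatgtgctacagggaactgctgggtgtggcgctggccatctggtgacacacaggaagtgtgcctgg
Folr2: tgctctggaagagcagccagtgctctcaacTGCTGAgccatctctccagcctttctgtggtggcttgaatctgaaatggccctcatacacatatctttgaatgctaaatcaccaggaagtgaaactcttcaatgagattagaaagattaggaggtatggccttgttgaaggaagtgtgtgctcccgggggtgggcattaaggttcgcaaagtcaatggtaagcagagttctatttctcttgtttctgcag
Timd4: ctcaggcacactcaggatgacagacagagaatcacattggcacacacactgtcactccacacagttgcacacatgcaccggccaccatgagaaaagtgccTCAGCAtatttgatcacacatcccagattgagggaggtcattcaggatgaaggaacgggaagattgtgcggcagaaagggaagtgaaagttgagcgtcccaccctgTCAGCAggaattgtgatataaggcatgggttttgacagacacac
The match nearest the RefSeq start began 242 bases upstream in Ednrb, 90 in Fcna, 220 in Folr2 and 44 in Timd4. RefSeq and GENCODE starts differ: the Ednrb window lies wholly within the GENCODE span of its gene. The Fcna and Folr2 windows overlap the GENCODE spans of their genes in part. Fcna alone among the 9 held both cores, and its PU.1 matches include a pair that overlap by 1 base. These matches are letters found in a window and show nothing of binding.

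Depth differed between libraries. After filters and removal of called doublets, 12991 Arg cells and 12800 Control cells remained, and a typical (median) cell had 8294 UMIs in Arg and 10021 in Control, a UMI (unique molecular identifier) being a counted RNA molecule. The libraries shared 44 cell barcodes. Clusters were made with the 10 genes left out and were named "-like" from other markers. Levels are UMIs summed over a group of cells and scaled to that group's total as counts per 1e6 UMIs (CPM), and they compare a gene across cells, not 1 gene with another. Monocytes and macrophages, pooled, comprised 7443 Arg cells and 6649 Control cells in 8 clusters. Among them were macrophage-like clusters 0 (Mmp12, Mmp13, Arg1), 1 (Ch25h, Cx3cr1) and 10 (cycling), monocyte-like clusters 5, 8 and 12 (interferon-stimulated), and the unnamed clusters 2 (Ly6i, Cxcl9) and 6.

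Cluster 6 was where 9 of the 10 genes had their highest level in both libraries. It held 599 Arg cells (median 6632 UMIs) and 1096 Control cells (median 8563 UMIs), which is 8.05% and 16.5% of the pooled monocytes and macrophages. Its leading genes were C6, Npl, Selenop, Ltc4s, Igf1, Clec10a, Pdgfc, Ccl8, F13a1 and Wfdc17. All 10 macrophage markers were detected in it, C1qa, Apoe and Adgre1 among them, at a summed 26741 CPM in Arg and 22651 CPM in Control. It nevertheless took no name, because Clec10a is a listed marker of cDC2 cells (a conventional dendritic cell type) and no listed macrophage marker stood among its 10 leading genes. cDC2 markers summed to 856 CPM in Arg and 502 CPM in Control there. Clec10a gave 579 CPM in Arg and 396 CPM in Control of that sum, and Mgl2 200 CPM and 43.5 CPM. Each other listed cDC2 marker was at or under 21.63 CPM, and Flt3 stood at 0.40 CPM in Arg and 0.62 CPM in Control. Cluster 6 contributed 23.0% of all Arg UMIs of the 10 genes and 51.9% of all Control ones. The defining lymphatic markers Prox1 and Ccl21a, of interest because lymphatic vessels also carry Lyve1, were at 0 in cluster 6 of the Arg library, and in Control Ccl21a was at 0 and Prox1 under 1 CPM.

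**Figure D1:**
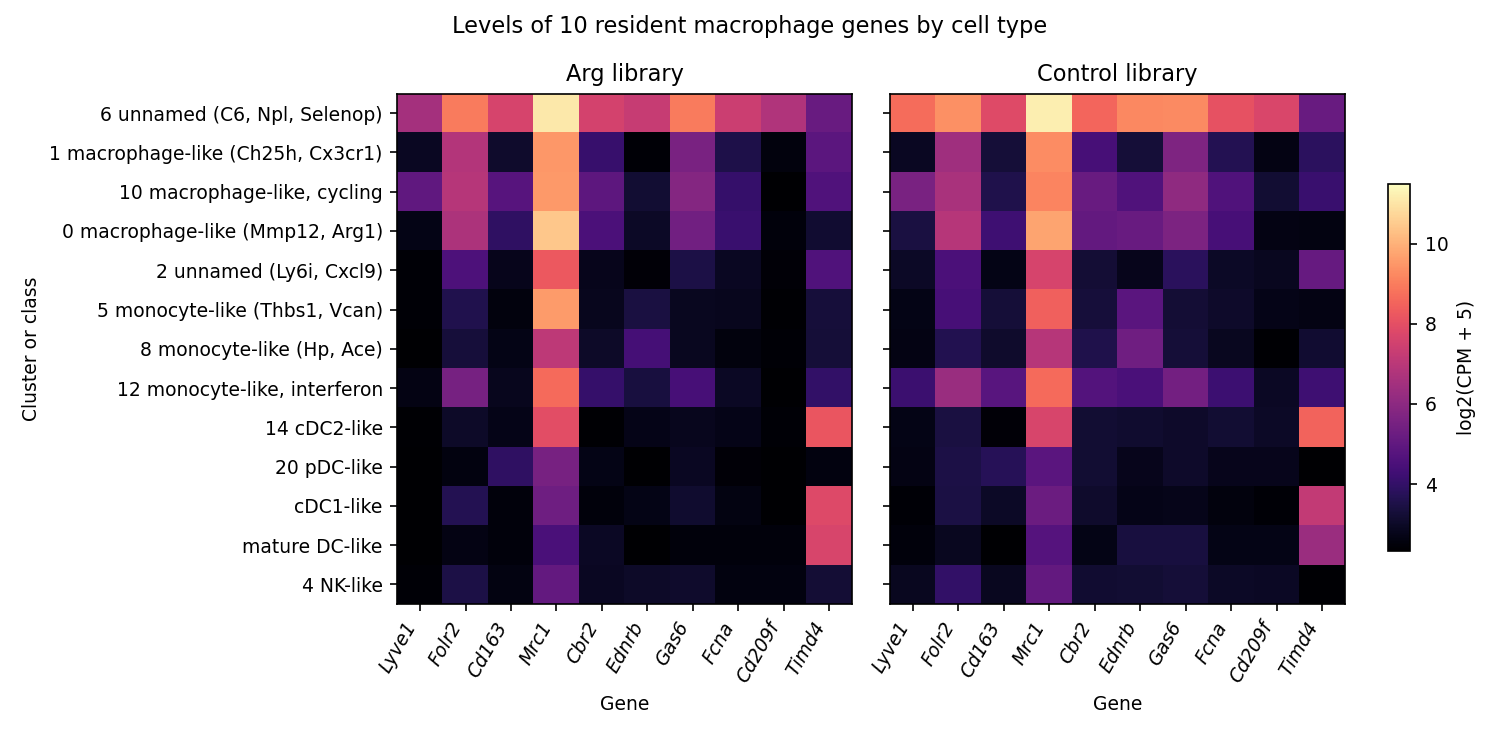
Level of each gene, as log2(CPM + 5), in each monocyte, macrophage and dendritic cluster or class and in NK-like cluster 4, with the Arg library on the left and the Control library on the right. Cluster 6 is the brightest row for 9 genes, and Timd4 is brightest in cDC2-like cells of both libraries.

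Among the receptors, Mrc1 was widely spread. It stood at 2178 CPM in Arg and 2318 CPM in Control in cluster 6, and at 1383 CPM and 859 CPM in cluster 0. It was also present in monocyte-like cluster 5, with 759 CPM in Arg and 339 CPM in Control, and in cDC2-like cells, with 243 CPM and 202 CPM. NK-like cells, which should lack these genes, read 25.5 CPM in Arg and 28.7 CPM in Control, so Mrc1 lay above that background in all 8 monocyte and macrophage clusters and in cDC2-like cells. In cDC1-like cells it had 34.9 CPM in Arg and 32.9 CPM in Control and in mature dendritic-like cells 17.3 CPM in Arg and 21.9 CPM in Control, near or below the background.

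Folr2 followed a narrower order, the same in both libraries at its top: cluster 6, then the macrophage-like clusters, then monocyte-like cluster 12. It had 502 CPM in Arg and 648 CPM in Control in cluster 6. Across clusters 0, 1 and 10 it lay between 100 and 115 CPM in Arg and between 81.4 and 116 CPM in Control, and the order of these 3 differed between libraries. Monocyte-like clusters 5 and 8 had 7.11 and 4.79 CPM in Arg and 16.1 and 7.33 CPM in Control, near the 4.88 CPM in Arg and 8.46 CPM in Control of NK-like cells except for cluster 5 in Control. The interferon-stimulated monocyte-like cluster 12 had more Folr2, with 39.8 CPM in Arg and 72.8 CPM in Control.

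Cd163 and Lyve1 were concentrated further. Cd163 stood at 198 CPM in Arg and 228 CPM in Control in cluster 6, with 67.0% and 81.1% of its UMIs there. No other monocyte or macrophage cluster exceeded 23.4 CPM of Cd163. Lyve1 stood at 87.1 CPM in Arg and 411 CPM in Control in cluster 6, and next in cycling cluster 10, with 27.1 CPM in Arg and 42.1 CPM in Control. In cluster 10 of the Arg library those UMIs came from 7 of 204 cells, and 1 cell held 89 of the 122.

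Of the lectins, Cd209f was the more restricted to cluster 6. It had 87.3% of its Arg UMIs and 89.8% of its Control UMIs in cluster 6, at 104 CPM and 208 CPM. In every other monocyte or macrophage cluster it stayed at or under 4.11 CPM, against 0.745 CPM in Arg and 2.72 CPM in Control in NK-like cells. Fcna had 57.3% of its Arg UMIs and 68.6% of its Control UMIs in cluster 6, at 165 CPM and 268 CPM, and between 6.50 and 12.5 CPM in Arg and between 7.73 and 19.8 CPM in Control in the macrophage-like clusters.

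Gas6, the phosphatidylserine bridge, was found in cluster 6 at 502 CPM in Arg and 614 CPM in Control. The macrophage-like clusters held between 36.6 and 52.0 CPM of Gas6 in Arg and between 45.1 and 61.4 CPM in Control. Of the receptors it binds, Mertk stood at 117 CPM in Arg and 101 CPM in Control in cluster 6, Axl at 66.1 and 31.9 CPM, and Tyro3 at 2.22 and 0.528 CPM.

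Ednrb had a pattern of its own below cluster 6. It reached 151 CPM in Arg and 593 CPM in Control in cluster 6. The monocyte-like cluster 8 (Hp, Adgre4, Ace) had 15.8 CPM in Arg and 36.2 CPM in Control, more than its 5.55 CPM and 24.0 CPM in cluster 5 and more than the 3.14 CPM and 3.47 CPM of NK-like cells. Cluster 0 had 2.87 CPM in Arg, no more than NK-like cells, and 30.8 CPM in Control. Cbr2 had 184 CPM in Arg and 370 CPM in Control in cluster 6, then between 11.9 and 25.5 CPM in Arg and between 16.4 and 31.5 CPM in Control in the macrophage-like clusters.

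Timd4 differed from the other genes in where it was highest. Its highest levels lay in dendritic cells: cDC2-like cells had 289 CPM in Arg and 355 CPM in Control. In cDC1-like cells, the cross-presenting dendritic type, it had 222 CPM in Arg and 141 CPM in Control, and in mature dendritic-like cells 201 CPM in Arg and 74.4 CPM in Control. In plasmacytoid dendritic-like cells it had 1.03 CPM in Arg and no UMI in Control. Cluster 6 held 30.8 CPM in Arg (26.2 to 36.1) and 31.2 CPM in Control (28.1 to 34.6). Monocytes and macrophages as a whole gave 27.9% of the Timd4 UMIs in Arg and 42.2% in Control, whereas they gave between 86.0% and 97.3% of those of each other gene. Within that pool Timd4 was still higher in cluster 6 than in the rest, which had 11.8 CPM in Arg and 9.26 CPM in Control. Timd4 was thus not restricted to macrophages in these tumours.

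Between diets, 8 of the 10 genes were lower in the Arg library by at least 1.5-fold in the pooled monocytes and macrophages, and 0 were higher by that size. Among the 7952 genes with at least 10 CPM there in either library, 4.93% were lower by that size and 5.84% higher. The median log2 ratio of CPM + 5, Arg over Control, was -1.20 for the 10 genes and 0.01 for all genes. Counts of genes past 1.5-fold use that ratio, with 5 CPM added, whereas folds printed beside a gene are plain ratios of CPM and are larger for low genes. The widest gaps were those of Lyve1 and Ednrb. Lyve1 had 8.07 CPM in Arg and 68.1 CPM in Control, 8.43-fold lower (7.76 to 9.18). Ednrb had 13.2 CPM in Arg and 95.8 CPM in Control, 7.29-fold lower (6.82 to 7.79). Cd209f had 7.23 CPM in Arg and 30.7 CPM in Control, 4.24-fold lower (3.86 to 4.66).

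The other 5 genes that were lower by that size moved less. Cbr2 had 21.1 CPM in Arg and 68.3 CPM in Control, 3.24-fold lower (3.06 to 3.42), and Fcna had 16.5 CPM in Arg and 46.8 CPM in Control, 2.83-fold lower (2.65 to 3.02). Gas6 had 52.5 CPM in Arg and 121 CPM in Control. Cd163 had 18.2 CPM in Arg and 37.5 CPM in Control, and Folr2 had 84.8 CPM in Arg and 155 CPM in Control. Mrc1 and Timd4 were the exceptions, close between libraries: Mrc1 had 832 CPM in Arg and 799 CPM in Control, and Timd4 had 13.1 CPM in Arg and 12.3 CPM in Control. In NK-like cells 9 of the 10 genes, all but Timd4, were also lower in Arg, Lyve1 for instance with 0.248 CPM in Arg and 2.11 CPM in Control, and the part of this background in the differences was not tested.

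**Figure D2:**
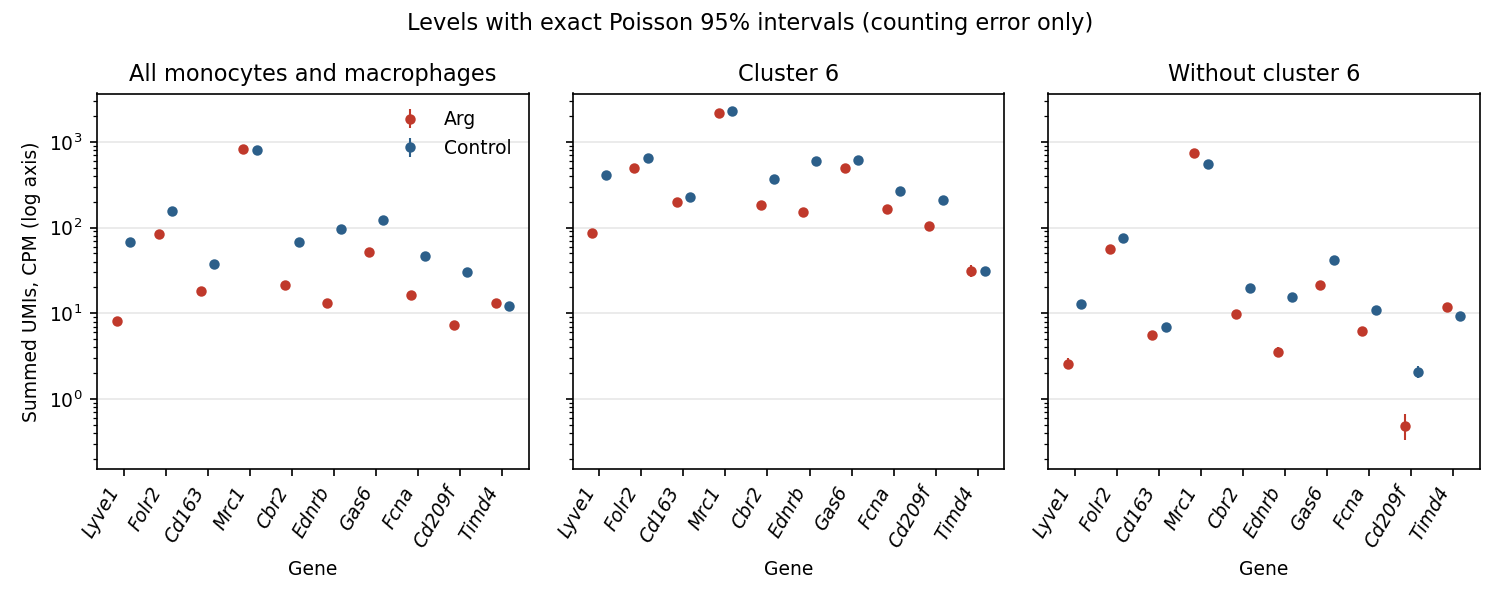
CPM of each gene (log axis) in all monocytes and macrophages, in cluster 6 and in the pool without cluster 6, with Arg in red left of Control in blue. Bars are exact Poisson 95% intervals of counting error. Lyve1 and Ednrb are lower in Arg in all 3 panels, whereas Mrc1 is close between libraries in the first.

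Part of this gap went with how many cells stood in cluster 6. Without cluster 6, 8 genes reached 10 CPM in either library, of which 4 were lower in Arg by at least 1.5-fold and 0 higher, against 5.39% lower and 6.19% higher of 7902 genes. Those 4 were Lyve1, Ednrb, Cbr2 and Gas6. With every cluster given 1 common weight in both libraries, 4 of the 10 were lower by that size, a count not made over all genes. The log2 ratio was then -1.59 for Lyve1, -1.78 for Ednrb, -0.76 for Cbr2 and -0.80 for Cd209f, and Cd163 stood at -0.14 and Folr2 at -0.13. The share of pooled cells in cluster 6 was lower in Arg, and so were the levels of Lyve1, Ednrb, Cbr2 and Cd209f once that share was held equal.

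Within cluster 6 all 10 genes were lower in Arg, 5 of them by at least 1.5-fold, where 2.61% of 8169 genes were lower and 6.51% higher by that size. Lyve1 was 4.72-fold lower (4.28 to 5.22) and Ednrb 3.92-fold lower (3.63 to 4.23). Cbr2 was 2.01-fold lower (1.87 to 2.16), Cd209f 1.99-fold lower and Fcna 1.63-fold lower. Folr2, Gas6, Cd163 and Mrc1 were lower by between 1.06-fold and 1.29-fold. Timd4 differed by less than its counting error, with a ratio of Arg over Control of 0.988 (0.812 to 1.20). In other clusterings, in which the cluster holding most of these cells had between 1101 and 1559 cells, Lyve1 and Ednrb stayed lower by at least 1.5-fold in each. The count of genes lower by that size ran from 2 to 5 there, and Cd163, Mrc1 and Timd4 were slightly higher in Arg in 6 of the 7 clusterings, with Cd163 at most at 0.37 on the log2 scale.

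In the macrophage-like clusters Mrc1 was higher in Arg. In clusters 0, 1 and 10 together, 9 of the 10 genes reached 10 CPM in either library, 2 were lower in Arg by at least 1.5-fold and 1 was higher, against 5.46% lower and 6.68% higher of 7951 genes. Cd163, with 10.5 CPM in Arg and 6.78 CPM in Control, was 1.54-fold higher (1.33 to 1.79) as a plain ratio but not with 5 CPM added. Mrc1 was the higher one, with 1155 CPM in Arg and 644 CPM in Control, 1.79-fold (1.77 to 1.82). Lyve1 had 5.28 CPM in Arg and 15.4 CPM in Control, and Ednrb had 2.53 CPM in Arg and 13.7 CPM in Control. Folr2 had 104 CPM in Arg and 91.7 CPM in Control. Counting cluster 6 with them made 5 of the 10 lower by that size, where 4.2% of 7996 genes were lower and 5.42% higher. Under other clusterings and weights the count lower by that size ran from 1 to 3, and the log2 ratio of Mrc1 from 0.31 to 0.93. The 3 clusters made up this class in unequal parts: cluster 0 held 1995 of its 2760 Arg cells and cluster 1 held 2091 of its 3691 Control cells. Cycling cluster 10 held 204 Arg cells and 803 Control cells.

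In cluster 0, of the 7 genes that reached 10 CPM in either library, 1 was lower in Arg by at least 1.5-fold (Ednrb) and 1 higher (Mrc1), where 1.39% of all genes were lower and 4.35% higher. In cluster 1, of 5 such genes, 0 were lower and 1 higher (Timd4), where 1.72% of all genes were lower and 1.95% higher. Cluster by cluster, Ednrb was lower in Arg by at least 1.5-fold in each of the 6 clusters where it reached 10 CPM in either library. Cbr2 and Gas6 were lower in each of 5 clusters, Fcna in each of 4 and Lyve1 in each of 3, though not always by that size. Mrc1 was higher in Arg in 7 of 8 clusters, with cluster 6 as the exception. In monocyte-like cluster 5 Mrc1 was 2.24-fold higher (2.13 to 2.35). Folr2 was higher in 3 clusters and lower in 4. Timd4 was higher in 2 and lower in 3, and in cluster 1 it had 24.4 CPM in Arg and 9.30 CPM in Control. Cd163 was higher in cluster 10 and lower in clusters 0, 6 and 12.

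**Figure D3:**
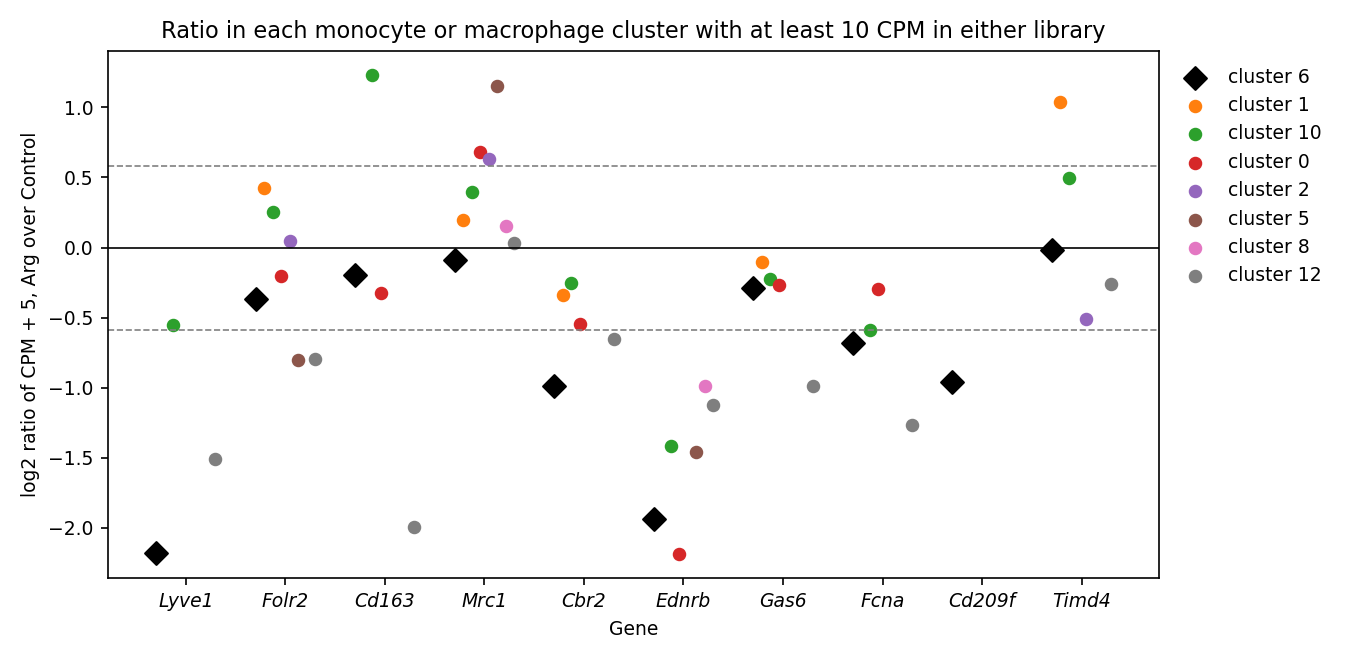
log2 ratio of CPM + 5, Arg over Control, for each gene in each monocyte or macrophage cluster where it reached 10 CPM in either library. Dashed lines mark 1.5-fold and black diamonds cluster 6. All Ednrb points lie below the lower dashed line, and 7 of the 8 Mrc1 points lie above 0.

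Cluster 6 itself was mixed, so it was clustered again by itself at a resolution of 0.3, a value chosen after seeing the data. Of the 3 large pieces, piece 0 (304 Arg and 560 Control cells) was led by Retnla, Cd209d, Tslp and Clec10a. Piece 1 (207 Arg and 184 Control cells) was led by Cxcl9, C3 and Cx3cr1. Piece 2 (71 Arg and 300 Control cells) was led by Arg1, Vcan and Mmp12. The other pieces were small, 1 of 36 Control cells led by genes such as Hmga2 and Cav1 and 1 of 17 Arg and 16 Control cells with T-cell genes such as Gzma and Cd3g.

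At this resolution Lyve1 was lower in Arg in each of the 3 large pieces, with 95.4 CPM in Arg and 333 CPM in Control in piece 0. In piece 1 it had 6.64 CPM in Arg and 115 CPM in Control, and in piece 2 it had 244 CPM in Arg and 592 CPM in Control. Ednrb was likewise lower in each: 305 CPM in Arg and 902 CPM in Control in piece 0, and 6.64 CPM in Arg and 59.6 CPM in Control in piece 1. In piece 2 Ednrb had 156 CPM in Arg and 539 CPM in Control.

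Cd163, the haemoglobin receptor, did not share this. It had 262 CPM in Arg and 263 CPM in Control in piece 0, and was higher in Arg in piece 1, with 83.5 CPM in Arg and 42.3 CPM in Control. In piece 2 it had 326 CPM in Arg and 257 CPM in Control. Weighted to 1 common mix of the 3 pieces, the log2 ratio was -1.57 for Lyve1, -1.64 for Ednrb, -0.72 for Cd209f and -0.68 for Cbr2. It was -0.44 for Fcna, -0.17 for Folr2, -0.08 for Gas6, 0.08 for Mrc1 and 0.23 for Cd163. The pieces were not matched in other genes: Retnla, a secreted protein of alternatively activated macrophages, had 4262 CPM in Arg and 122 CPM in Control in piece 0. At a resolution of 0.5 the largest piece, led by Bmp2 and Tslp, held 35 Arg and 483 Control cells, and another, led by Retnla, held 212 Arg and 10 Control cells, so library and cell state could not be told apart there. At that resolution the Cxcl9 and C3 piece had 4.05 CPM of Lyve1 in Arg and 8.50 CPM in Control, a ratio of 0.476 (0.171 to 1.24), and 6.08 CPM of Ednrb in Arg and 24.2 CPM in Control, a ratio of 0.251 (0.119 to 0.492). The Retnla piece, with 2 Lyve1 UMIs and 16 Ednrb UMIs in its 10 Control cells, gave ratios of 2.25 for Lyve1 (0.612 to 18.8) and 0.844 for Ednrb (0.514 to 1.49). In the Cxcl9 and C3 piece both gaps were therefore narrower at 0.5 than at 0.3, though Ednrb stayed lower in Arg beyond counting error. The Retnla piece rests on its 10 Control cells. Levels in the other pieces at 0.5, such as the Arg1 piece of 67 Arg and 301 Control cells, are not given here. How the gaps of Lyve1 and Ednrb depend on the division of cluster 6 is thus shown for these pieces alone.

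**Figure D4:**
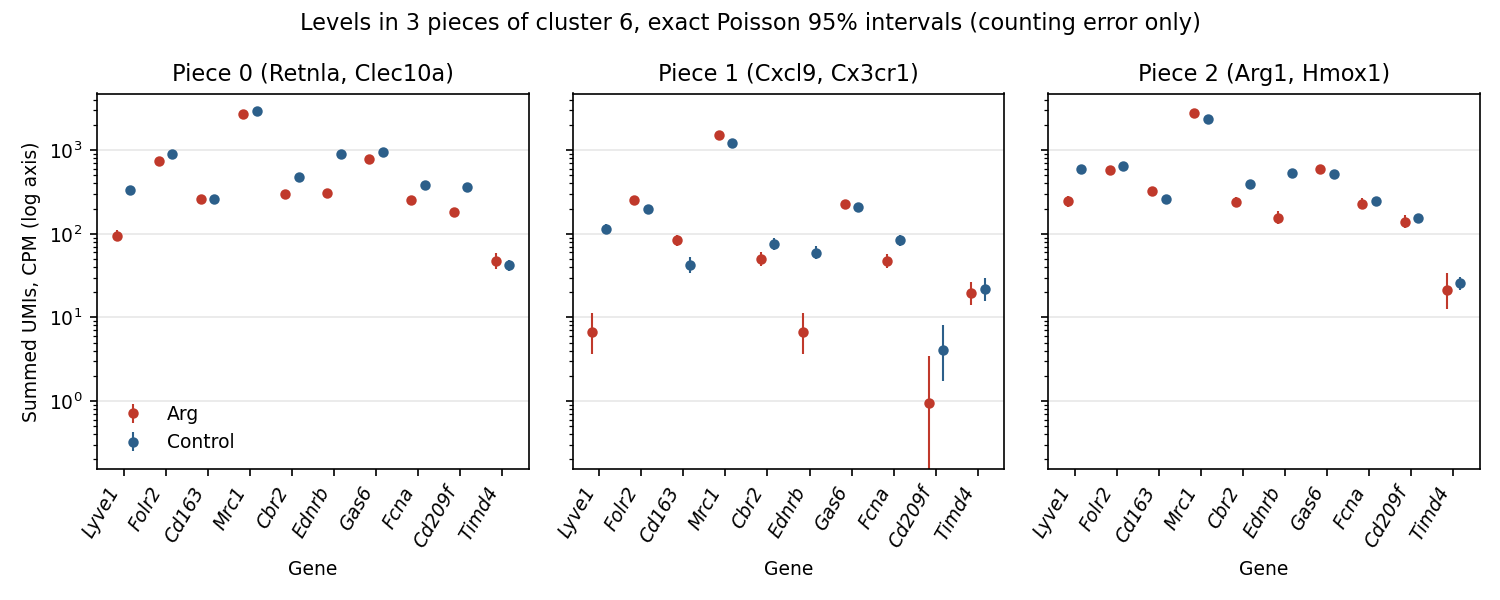
CPM of each gene (log axis) in the 3 large pieces of cluster 6, Arg in red left of Control in blue, with exact Poisson 95% intervals of counting error. Lyve1 and Ednrb are lower in Arg in every panel, and Cd163 is level in piece 0 and higher in Arg in pieces 1 and 2.

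Within single cells the genes were found together. At 2000 UMIs per cell, with 294 Arg and 245 Control cells left out as shallower, 14.6% of Arg (13.8 to 15.5; 1046 of 7149) and 25.1% of Control monocytes and macrophages (24.0 to 26.1; 1605 of 6404) held UMIs of at least 2 of the 10 genes. Without thinning the shares were 33.7% in Arg and 53.2% in Control. NK-like cells, with medians of 6286 and 6831 UMIs, gave 0.14% in Arg and 0.793% in Control. In cluster 6 the share at 2000 UMIs was 78.8% in Arg and 88.0% in Control, and in the pool without it 9.45% in Arg and 13.1% in Control. Some cells in the pool held UMIs of all 10 genes before thinning.

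Single genes followed the same lines at 2000 UMIs. In cluster 6, Lyve1 was found in 9.36% of Arg cells and 28.4% of Control cells, and Ednrb in 22.8% of Arg cells and 513 of the 1025 Control cells deep enough. Cd163 was found in 23.8% of Arg cells and 22.2% of Control cells, and Mrc1 in 94.9% of both. NK-like cells gave at most 1.85% for each gene other than Mrc1, at 5.04% in Arg and 5.94% in Control. In the pool without cluster 6, Lyve1 was found in 0.197% of Arg and 0.837% of Control cells, against 0.07% of Arg and 0.793% of Control NK-like cells. Cd209f was found there in 0.0454% of Arg and 0.316% of Control cells, below the 0.14% and 0.793% of NK-like cells, and was read as background.

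For pairs, cells were thinned to 5000 UMIs. In the pool, each of the 90 ordered pairs of genes had a higher share of cells with the second gene among cells with the first than among cells without it, in both libraries. Both orders of a pair always agree in this direction, so each pair is counted in both orders, here and below. Most of the genes had their highest level in cluster 6, which by itself raises such shares in the pool. Pairs of other genes were not counted for comparison. Leaving out Timd4, the median share over 72 ordered pairs was 34.5% with the first gene and 2.68% without it in Arg, and 50.5% and 5.62% in Control. Cbr2 was found in 66.3% of the 89 Lyve1-positive Arg cells and 5.06% of the others, and in 73.3% of the 450 Lyve1-positive Control cells and 9.36% of the others. Timd4 was part of this too. Lyve1 was found in 5.95% of Timd4-positive Arg cells and 1.21% of the others, and in 25.6% of Timd4-positive Control cells and 6.90% of the others. Cd209f was found in 6.75% of Timd4-positive Arg cells and 0.75% of the others, and in 15.4% of Timd4-positive Control cells and 2.99% of the others. Mrc1, present in most cells, was found in 68.7% of Timd4-positive Arg cells and 63.2% of the others, and in 75.2% of Timd4-positive Control cells and 66.6% of the others.

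The same counts were made within cluster 6 and outside it. Inside cluster 6, all 90 ordered pairs again had the higher share with the first gene, with medians over 72 pairs of 56.3% and 26.6% in Arg and 74.1% and 33.9% in Control. Mrc1 was found in 376 of the 381 Arg cells and 796 of the 807 Control cells there, so pairs with Mrc1 rest on few cells without it. The pieces of cluster 6 differ in these genes, and their part in the pairs was not tested. Ednrb was found in 56.5% of Lyve1-positive Arg cells and 25.3% of the others, and in 87.9% of Lyve1-positive Control cells and 43.7% of the others. Lyve1 was found in 33.1% of Ednrb-positive Arg cells, against 62.2% of Ednrb-positive Control cells. In the pool without cluster 6, 78 of the 90 ordered pairs in Arg and 88 in Control had the higher share, some of them on few cells. The shares of Timd4 pairs lay closer together there. Lyve1 was found in 0.474% of Timd4-positive Arg cells (1 cell) and 0.328% of the others, and in 2.98% and 1.69% in Control. Mrc1 was found in 62.6% and 61.2% in Arg and 63.1% and 61.8% in Control. Timd4 with Fcna in Arg and Timd4 with Gas6 in Control went the other way.

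**Figure D5:**
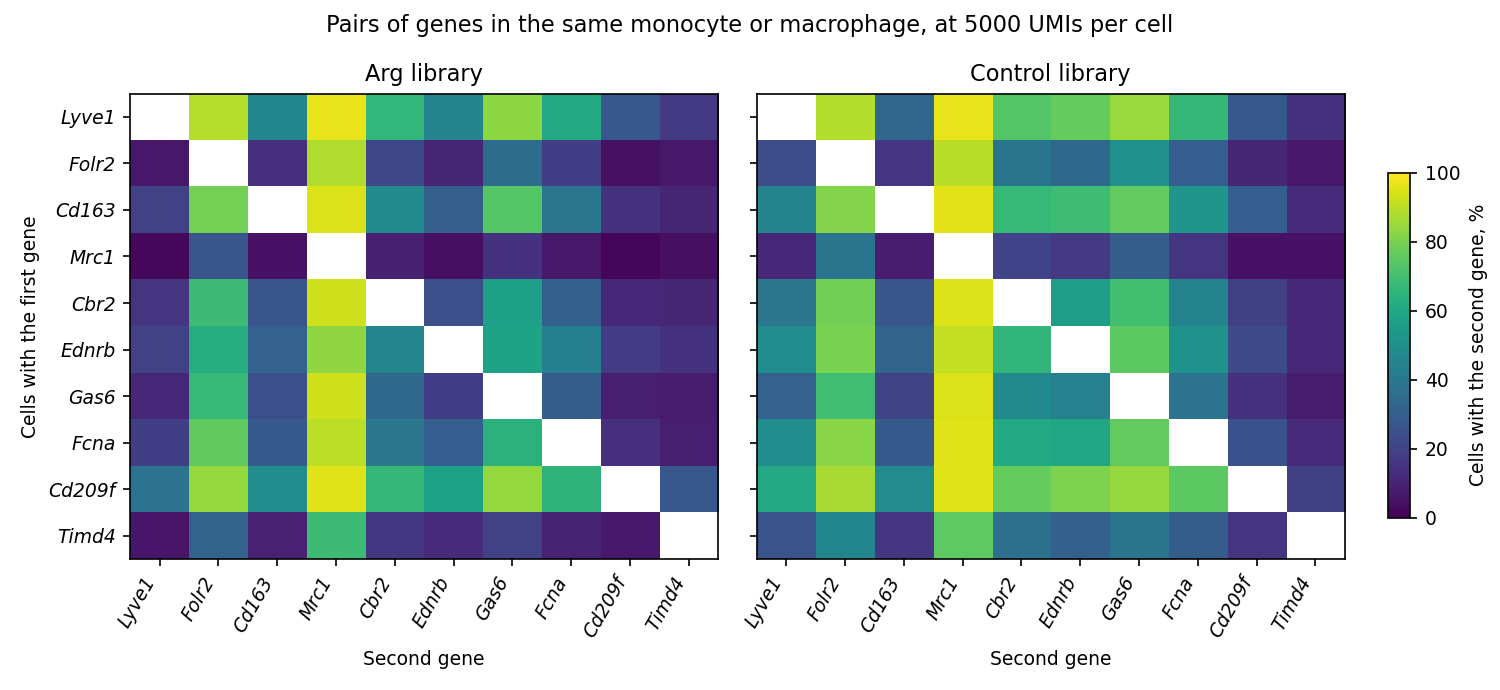
Share of pooled monocytes and macrophages with the second gene (columns) among cells with the first gene (rows), in percent, at 5000 UMIs per cell, Arg left and Control right. The Mrc1 and Folr2 columns are bright for most rows, and no row of the Timd4 column exceeds 27.0% in Arg or 18.9% in Control.

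Across 22 sums of cells by cluster and library, other than Timd4 the genes rose and fell together as a description, since these sums share libraries and depth. Pearson's r of log2(CPM + 5) was 0.97 for Folr2 with Gas6, 0.97 for Cbr2 with Gas6 and 0.94 for Lyve1 with Fcna. Mrc1 was the loosest of these 9, at 0.50 with Cd209f and 0.82 with Folr2. Timd4 lay between -0.23 and 0.08 with each of the others.

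Over 8413 genes, the 10 closest to the mean of the genes were Rcn3 (r = 0.98), Gpt2, Cnrip1, Stard8, C6, Trpv4, Aldh7a1, Fxyd2, Igf1 and Nxpe5. Cd209f lay closest to its neighbour in name Cd209g (r = 0.99), then to Tslp and A4galt, and reads may be split between such similar lectins. Lyve1 lay closest to Npl, Rcn3 and C6, and Cbr2 to Npl, Stard8 and Cela1. Ednrb lay closest to Bmp2 (0.94), Reps2 and Calml4, and Bmp2 itself had 30.4 CPM in Arg and 101 CPM in Control in cluster 6. Gas6 lay closest to Cela1, Scamp5 and Wwp1, Folr2 to Igfbp4, Pmp22 and Scamp5, and Fcna to Rcn3, Cnrip1 and Igf1. Cd163 lay closest to Samd4, Igf1 and Pdgfc, and Mrc1 to Adam15, Vat1 and the lysosomal protease gene Ctsd. Timd4 lay closest to Klri2 (0.95), Klri1 and Cst3, the last highly expressed in dendritic cells.

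Other genes of resident and perivascular macrophages moved with the 10 only in part. Of 26 listed, 21 reached 10 CPM in the pool, 9 of them lower in Arg by at least 1.5-fold and 1 higher, with a median log2 ratio of -0.53. Over all genes there, 4.93% were lower and 5.84% higher. In cluster 6, 10 of 24 were lower by that size and 2 higher, against 2.61% and 6.51% of all genes. In the macrophage-like clusters, 5 of 18 were lower and 6 higher, against 5.46% and 6.68% of all genes. The median of the list was 0.14 there. In the macrophage-like clusters, Pf4, a platelet-type chemokine made by macrophages, had 4514 CPM in Arg and 1564 CPM in Control. Fcrls had 7.15 CPM in Arg and 23.5 CPM in Control there. Pf4 went the other way in cluster 6, with 1263 CPM in Arg and 3150 CPM in Control. Fcrls was lower in Arg in cluster 6 too, with 46.8 CPM in Arg and 78.6 CPM in Control. In cluster 6, Cd5l had 6.25 CPM in Arg and 55.6 CPM in Control and the complement receptor gene Vsig4 had 8.87 CPM in Arg and 51.7 CPM in Control, both chosen after their values were seen. Selenop had 2730 CPM in Arg and 2208 CPM in Control there and Maf had 1238 CPM in Arg and 1085 CPM in Control, also chosen so, and neither was lower.

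Lists of each gene's own pathway partners were counted in the same way, against 4.93% lower and 5.84% higher of all genes in the pool. Each list had few measured genes, so these counts are not read as results about the lists. Of 13 genes of Gas6 signalling and phosphatidylserine uptake, 6 reached 10 CPM in the pool, 2 lower in Arg by 1.5-fold and 1 higher, and in the macrophage-like clusters Itgb5 had 39.2 CPM in Arg and 79.0 CPM in Control, Itgav 90.1 and 96.5 CPM, and Cd300lf 192 and 97.7 CPM. Of 12 genes of haemoglobin and iron handling, 11 were measured in the pool, 2 lower and 0 higher. Hmox1, the haem-degrading enzyme, had 626 CPM in Arg and 1949 CPM in Control in cluster 6, and the iron exporter gene Slc40a1 40.9 CPM in Arg and 122 CPM in Control, both chosen after their values were seen. In the macrophage-like clusters the ferritin genes Fth1 and Ftl1 had 19765 and 6808 CPM in Arg and 15863 and 5971 CPM in Control, the scavenger receptor gene Lrp1 333 CPM in Arg and 203 CPM in Control, and Slc11a1 91.1 CPM in Arg and 108 CPM in Control.

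For hyaluronan, 3 of 10 genes were measured in the pool, 1 lower and 0 higher, against 4.93% and 5.84% of all genes. In the macrophage-like clusters the receptor gene Cd44 had 538 CPM in Arg and 469 CPM in Control, and Cemip2 115 CPM in Arg and 77.3 CPM in Control. Hmmr had 15.5 CPM in Arg and 37.3 CPM in Control there, but did not reach 10 CPM in clusters 0, 1 or 6. In those 3 clusters 0 hyaluronan genes were lower by 1.5-fold, and 1, in cluster 0, was higher, where 4.35% of all genes were higher. The part of cycling cluster 10, with 204 Arg and 803 Control cells, was not tested. For endothelin, 2 of 8 were measured in the pool, both higher in Arg by 1.5-fold, against 5.84% of all genes. In the macrophage-like clusters Edn1, the ligand, had 14.3 CPM in Arg and 5.70 CPM in Control. Ece1, its converting enzyme, had 41.3 CPM in Arg and 29.6 CPM in Control there. Both were higher by that size in cluster 0. In clusters 1 and 6 only Ece1 was measured, and it was not. Edn1 had 2.42 CPM in Arg and 4.48 CPM in Control in cluster 6. Ednrb, a receptor for the ligand, was lower in the macrophage-like clusters.

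For folate, 6 of 10 were measured in the pool, 2 lower and 0 higher, against 4.93% and 5.84% of all genes. In the macrophage-like clusters Ggh had 97.8 CPM in Arg and 69.1 CPM in Control, and Mthfd2 53.0 CPM in Arg and 71.8 CPM in Control. Tyms had 22.3 CPM in Arg and 42.3 CPM in Control there. Within clusters 0 and 6, 0 measured folate genes were lower or higher by 1.5-fold, and within cluster 1, 1 was lower and 0 higher. Of all genes in cluster 1, 1.72% were lower by that size and 1.95% higher. The part of cycling cluster 10 in these values was not tested. For the lectin complement pathway, 2 of 10 were measured. In the macrophage-like clusters C3 had 86.5 CPM in Arg and 36.4 CPM in Control, and C4b 37.0 CPM in Arg and 77.6 CPM in Control. For the CD209 family and like lectins, 5 of 11 were measured in the pool, 1 lower and 2 higher, against 4.93% and 5.84% of all genes. In the macrophage-like clusters Mgl2 had 91.3 CPM in Arg and 33.4 CPM in Control, Clec4n 711 CPM in Arg and 295 CPM in Control, and Clec10a 29.3 CPM in Arg and 24.3 CPM in Control, whereas Cd209f was at or under 2.19 CPM in both.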

How the data were processed

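The deposited matrices of both libraries hold raw UMI counts, 1 value for each gene in each barcode. Cell Ranger is given as 7.0.1 per the file headers and as 2.2.2, with GRCm38, per the submitters' processing notes. Libraries were made with the 10x Chromium 3′ v3 system, per the labels' protocols. The matrices held 14540 Arg and 14343 Control barcodes, with 155927693 and 191505551 UMIs. Kept barcodes (13875 and 13487) had a minimum of 200 genes and 500 UMIs, with mitochondrial UMIs no more than 10%, and Scrublet removed 884 and 687 doublets. Clusters came from 2000 variable genes without the 10 genes studied, 30 principal components, 20 neighbours and the Leiden method at resolution 1 (scanpy 1.11.5, leidenalg 0.10.2, Python 3.11.15), with no batch correction. A cluster took the class with the highest mean log2 fold of its listed markers over the other cells. That mean had to be at least 0.5, with at least 3 markers detected in 20% of cells. The name was withheld where another class had more markers among the 10 leading genes, or where a shallow cluster had none of its own. An unnamed cluster joined the pool where its best marker set was of monocytes or macrophages, unless withheld as shallow. UMIs were summed by cluster or class and library. Log2 ratios, and the counts of genes past 1.5-fold, used a pseudocount of 5 CPM and genes with at least 10 CPM in either library, whereas printed folds and their intervals are plain ratios of CPM. With 1 library per diet there is no test. The ratio and its intervals were tested on simulated sums drawn with Poisson counting error, as the intervals assume. That test did not cover UMIs spread unevenly between cells. edgeR 4.0.16 gave TMM factors as an alternative. The 10 genes and all lists were chosen with earlier results of these data known. Named beside the 10 are the 3 genes most like each, the 10 most like their mean (genes with at least 20 CPM in a sum of at least 50 cells) and, per list, the 2 highest genes and the highest and lowest ratio in macrophages. A gene that this rule names is not reported here. Alternatives were other cell filters, clusterings, pseudocounts, TMM factors, equal weight per cell, 1 common mix of clusters, leaving out the 5 highest cells, and other thinning. The split of cluster 6 and all settings that move, re-draw or drop that cluster were added after seeing the data. Intervals cover counting error only.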

Additional observations from a re-analysis of the deposited data

Results flagged for a closer look

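Cd163 differed in direction between clusters. Its log2 ratio of CPM + 5, Arg over Control, was 1.23 in the cycling macrophage-like cluster 10, with 22.4 CPM in Arg and 6.67 CPM in Control. It was -1.99 in the interferon-stimulated monocyte-like cluster 12, with 2.14 CPM in Arg and 23.4 CPM in Control. The difference between these clusters was not tested. In cluster 12 the 68 Control UMIs came from 6 of 261 cells, and 1 cell held 40 of them. In cluster 10 the 101 Arg UMIs came from 21 of 204 cells, and 1 cell held 29.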

How the results depend on the processing

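In the pool, the macrophage-like clusters and cluster 6, no difference of at least 1.5-fold changed direction under the alternatives run. The pieces of cluster 6 were not part of this check. At a resolution of 0.5 the Retnla piece had Lyve1 higher in Arg, on its 10 Control cells. Of 380 recomputed ratios of single genes, 167 stayed within the counting interval and 213 moved beyond it. In the pool, 8 genes were lower in Arg by at least 1.5-fold, between 7 and 8 under cell filters, clusterings, pseudocount, TMM and weights per cell, but 4 under 1 common mix of clusters and 4 without cluster 6, a setting chosen after seeing the data, as were all those for cluster 6. In macrophage-like clusters the count was 2, and 1 at resolution 0.5, 1 with the 10 genes among the variable ones, 1 under 1 common mix and 5 with cluster 6. In cluster 6 it was 5, and 3 with doublets kept, 2 with no cell filter, 3 at resolution 0.5, 2 at resolution 2 and 3 with the 10 genes among the variable ones. The log2 ratio of the shares of cells with at least 2 genes was -0.78, and -0.52 with genes centred within each library, -0.63 at 5000 UMIs, -0.66 without thinning and -0.47 without cluster 6. The cause of these shifts was not tested. Apart from leaving out or adding cluster 6, no share over all genes was recomputed under the alternatives. Lyve1 ran from -2.93 to -1.22 and Ednrb from -2.77 to -1.27 in the pool. Mrc1 stayed above 0 in the pool and in macrophage-like clusters, whereas Cd163, Fcna, Folr2 and Gas6 took both signs in macrophage-like clusters. No paired analysis was possible because each diet had 1 library, and no replicate could be left out.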

Other observations

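A few of the genes had UMIs above the background outside monocytes and macrophages. Gas6 stood at 191 CPM in Arg and 199 CPM in Control in fibroblast-like cluster 23 (Col3a1, Col1a1, Mfap5), with 35 Arg and 88 Control cells. Ednrb stood at 12.6 CPM in Arg and 18.6 CPM in Control in T-like cluster 16, led by Foxp3, Il2ra and Ctla4. NK-like cells had 3.14 CPM in Arg and 3.47 CPM in Control of that gene. Cd163 stood at 10.3 CPM in Arg and 8.20 CPM in Control in plasmacytoid dendritic-like cells, against 1.32 CPM and 1.81 CPM in NK-like cells. Mrc1 stood at 454 CPM in Arg and 446 CPM in Control in cluster 21, a T-like cluster whose leading genes also include Dcstamp, a gene of macrophages and osteoclasts. All T-like cells together had 59.6 CPM in Arg and 38.6 CPM in Control of Mrc1. Whether barcodes of cluster 21 mixed T cells with macrophages was not tested.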
